A study of Drosophila melanogaster with 6 samples.

Results

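The genes described here are the core machinery of RNA interference and of microRNAs in Drosophila melanogaster: drosha, pasha, Dcr-1, loqs, Dcr-2, r2d2, AGO1 and AGO2. They were chosen by RefSeq gene name, with every transcript of each gene, which gave 23 of the 34115 transcripts in the authors' deposited tables, called the member transcripts here. Expression was measured by RNA sequencing in larval central nervous systems (CNS) at 84 h after egg laying, pooled at 15 CNS a sample. The labels give 3 dSET2 knockdown samples, with 1 copy of a dSET2 RNAi transgene and the neuronal elavC155GAL4 driver. They also give 3 control samples, with 1 copy of the same transgene in a Canton S background and no driver, so the groups also differ in the driver and in background. All samples of both groups thus carry the RNAi transgene, and the RNA came from the whole CNS while the driver acts in neurons. The target, dSET2, is listed as Set2 in RefSeq and encodes a methyltransferase of histone H3 lysine 36.

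As background, animal cells use short RNAs to guide Argonaute proteins to matching messenger RNAs. In flies the microRNA branch starts in the nucleus, where Drosha and its partner Pasha cut hairpins out of primary transcripts, and continues in the cytoplasm, where Dicer-1 and Loquacious trim them for loading into Argonaute 1. The RNA interference branch uses Dicer-2, with R2D2 or an isoform of Loquacious, to cut long double-stranded RNA and load Argonaute 2. RNAi transgenes that make long double-stranded RNA engage this branch. Which branch the transgene used here engages was not tested. The neurons of flies rely on microRNAs during development, and Dicer-2 is often supplied as an extra transgene to strengthen neuronal RNAi. The labels name no such transgene.

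At a false discovery rate of 0.05, no member transcript was called by edgeR in the authors' deposited table, where 1.93% of all transcripts with reads were. Nor was any called at an adjusted p-value of 0.05 by DESeq2 in the authors' deposited table, against 2.26% of the transcripts with an adjusted value there, and 8 of the 11 member transcripts with reads have one. At an unadjusted p-value under 0.05 the member count was also 0 in both tables, and the shares over all transcripts with reads were 6.32% for edgeR and 3.77% for DESeq2. The smallest unadjusted value of a member in the authors' deposited tables was 0.191 in edgeR and 0.400 in DESeq2, in both cases for r2d2. Of the 11 member transcripts with reads, 6 had a positive and 5 a negative fold change, and the sign was shared by both tables for all 11.

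The sides of the comparison carry no group names in the tables, so directions are given by library. The base mean of a transcript is the mean over libraries of its read count divided by the library's size factor. Low base means were whole-number sums of 4 steps, each the value of 1 read in 1 library, which are called libraries A, B, C and D, although the labels describe 6 samples. Their size factors were 1.48, 1.11, 0.902 and 0.701. Transcripts with a single read in A, C or D had a positive fold change by edgeR in the authors' deposited table, and those with a single read in B a negative one (489 transcripts at -3.10). Positive values therefore stand for more reads in A, C and D, negative ones for more reads in B alone, and which side is the knockdown is not stated. The RNAi target itself, transcript NM_132660 of Set2, decoded to normalized read counts of 6.75 in A, 23.3 in C and 0 in D, against 32.4 in B. The count of 0 in library D has a floor of 4.28, the normalized value of 3 reads. The level of Set2 was thus highest in B, and among A, C and D it ran from no reads to 23.3. With B alone on its side and that spread on the other, Set2 was not used to give the comparison a direction.

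Of the neuron markers 14 of 14 were above 0, as were 12487 of all 16958 genes, so that count alone does not show neuronal identity. Among the 12 at a base mean of 10 or more, all 12 were positive, with a median edgeR log2 fold change of 0.58, and none passed the threshold in either table. Of all 6596 genes at that level, 3401 were positive. Below it, Rdl was at 0.38 by edgeR (base mean 2.28) and Snap25 at -3.11 (base mean 1.07). All 8 glia and all 8 neuroblast markers had reads as well. Markers of other larval tissues were present too, and none of these lists was entirely at 0. All 9 muscle markers had reads, and the 5 at a base mean of 10 or more were negative, with a median of -2.21. None of them passed the threshold in either table. All 10 salivary gland markers had reads, and 8 of the 9 at a base mean of 10 or more were negative, with a median of -10.02 and 7 calls by edgeR in the authors' deposited table. Of the fat body markers 5 of 6 had reads, with Fbp1 at 0. Both at a base mean of 10 or more were negative, with a median edgeR value of -6.62. Neither was called by edgeR in the authors' deposited table, and DESeq2 called 1 of them, Lsp1alpha, in theirs. At lower base means, Lsp2 was positive by edgeR (3.21, base mean 0.723). Lsp1beta (-2.15, base mean 0.619) and Fbp2 (-3.10, base mean 0.225) were negative. Of 5 hemocyte markers 3 had reads, with Hml and He at 0. Both at a base mean of 10 or more, PPO1 and PPO2, were negative, with a median of -5.76. NimC1, at a base mean of 5.46, was positive at 0.36 by edgeR. The hemocyte marker PPO2 was called in both of the authors' deposited tables, at -4.96 by edgeR, and PPO1 in neither. Of 5 matched germline markers 4 had reads, with vas at 0. The 3 at a base mean of 10 or more were positive, with a median of 0.44, and none passed the threshold. The part of these tissues in the members' values was not tested, and in pooled tissue fewer cells of a type and less RNA per cell cannot be told apart.

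What the tables record of the 8 genes differed with their isoforms. The single-transcript genes drosha and Dcr-1 had base means of 2362 and 2428 in the authors' deposited table, together 96.7% of the summed base mean of all 23 member transcripts. The other 6 genes each have 2 or more transcripts, and their summed base means ran from 0 for Dcr-2 to 105.6 for AGO1. Of the 23 transcripts, 12 were listed at a base mean of 0. Both transcripts of Dcr-2 were among them, so the enzyme that cuts long double-stranded RNA has no measurement in these tables.

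The annotation of build BDGP6.54 was used to count the bases of each gene that lie in 1 of its transcripts and in no other gene. These are called own bases below. The authors' own build is dm3 per the submitters' processing notes, so small differences between annotations are possible. All 4290 exonic bases of drosha, on chromosome arm 2R, and all 6913 of Dcr-1, on 3R, were own bases. AGO1 (2R) had 717 own bases of 8278 exonic ones, pasha (3R) 736 of 3214, loqs (2L) 273 of 2290 and r2d2 (2L) 185 of 1879. AGO2 (3L) had 94 of 4144 and Dcr-2 (2R) had 3 of 5684. The order of the genes by summed base mean was the same as their order by own bases, with a single exchange between AGO1 and pasha and no other among the 8. The levels were not proportional to own bases. Per kilobase of own bases, the summed base mean ran from 21.4 for AGO2 to 550.5 for drosha among the genes with reads.

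The isoforms were then compared gene by gene. Of the 6 annotated isoforms of loqs, 130 own bases fell to loqs-RC and 143 to loqs-RD, and the other 4 had none. The authors' deposited table likewise lists reads for 2 loqs transcripts and 0 for 4. All 3 isoforms of pasha had own bases (451, 69 and 216), and all 3 transcripts had reads. For AGO1 the isoforms AGO1-RB and AGO1-RD had 341 and 360 own bases, AGO1-RA had 16 and AGO1-RC had none, and 2 of the 4 transcripts had reads. The 3 isoforms of AGO2 had 0, 67 and 27 own bases, and 1 of 3 transcripts had reads. In r2d2, 431 exonic bases are shared with Cdc14 on the opposite strand, which left 92 own bases to r2d2-RA and 93 to r2d2-RC, and 1 of 3 transcripts had reads. The 2 isoforms of Dcr-2 differ by 3 bases, and neither transcript had reads. The sources used here do not pair RefSeq transcripts with isoform names, so the counts are matched by gene only. How reads shared between transcripts, or with a gene on the opposite strand, were counted is not stated.

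**Figure D1:**
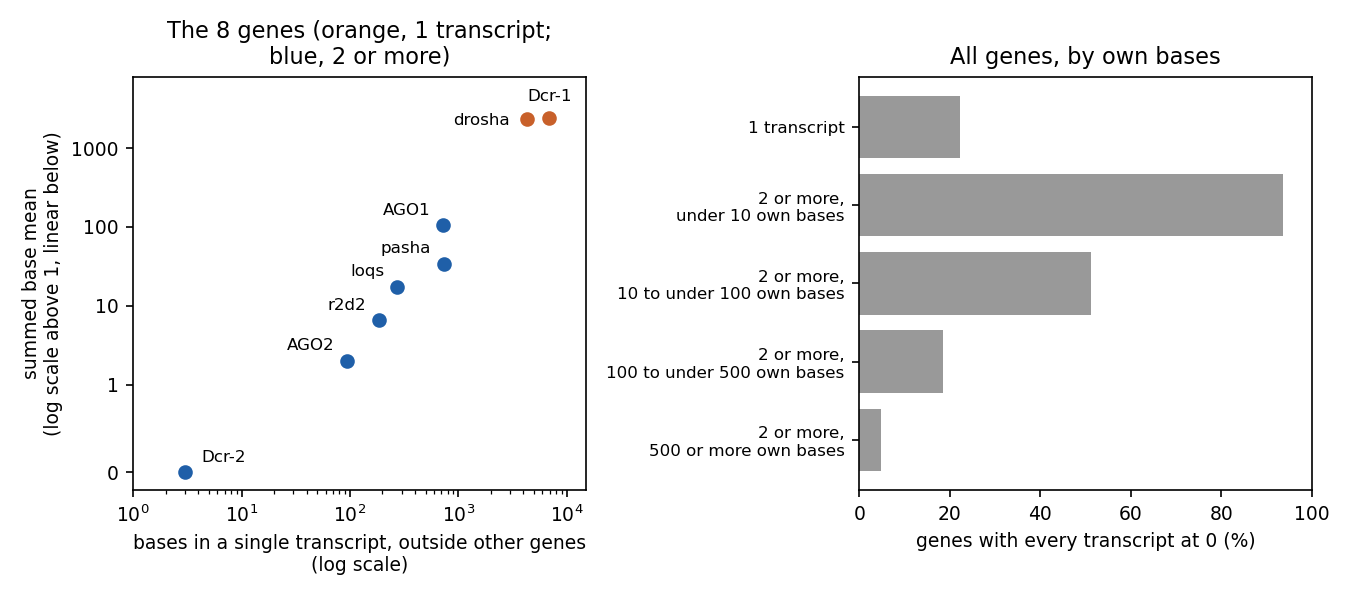
Left, the summed base mean of each of the 8 genes (log scale above 1, linear below) against its own bases, those in 1 transcript and in no other gene (log scale). Right, the percentage of all genes with every transcript at a base mean of 0, by number of transcripts and own bases. Dcr-2, with 3 own bases, sits at 0, and drosha and Dcr-1 sit at 2362 and 2428.

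The same relation was seen over the whole table, in genes with as many transcripts there as in the annotation. Among genes with 2 or more transcripts and under 10 own bases, 93.6% of 1029 had every transcript at 0. That share was 51.1% of 1429 genes with 10 to under 100 own bases, 18.6% of 2880 with 100 to under 500 and 4.87% of 1888 with 500 or more. Of 9588 genes with 1 transcript, 22.2% were at 0. The 0 of Dcr-2 is therefore the value of most genes built like it, and it does not show that Dcr-2 was not expressed. Own bases made up 2.27% to 22.9% of the exonic bases of loqs, r2d2, AGO1, AGO2 and pasha, and whether their values come from these bases alone was not tested.

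The nuclear step of the microRNA branch is carried by drosha and pasha. Transcript NM_058088 of drosha, the nuclear ribonuclease, had a log2 fold change of -0.18 by edgeR in the authors' deposited table, with an unadjusted p-value of 0.646. By DESeq2 the authors' deposited table gave -0.16 with a standard error of 0.431, which corresponds to a 95% interval of -1.0 to 0.69. Differences of up to about 1 log2 unit in favour of B are thus inside the interval. Library B is alone on its side, so this and the other DESeq2 standard errors hold no spread between libraries on that side. The DESeq2 values are shrunken toward 0 at low counts, so intervals of transcripts with few reads do not measure their precision. Shrinkage is not limited to low counts. The marker gene ng2, at a base mean of 1828, had -10.02 by edgeR and -4.15 by DESeq2, and Act57B, at 15816, had -2.21 and -0.999. The intervals of drosha and Dcr-1 are therefore also those of shrunken values. Per kilobase of transcript, the base mean of drosha was 550.5, above 55.2% of the 4215 single-transcript genes of base mean 10 or more, whose median was 427.4. These base means are too high to be written as whole reads per library, so no value per library can be given.

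Pasha, the double-stranded RNA-binding partner of Drosha, has 3 transcripts with reads. Its main transcript, NM_143622, had normalized read counts of 31.7 in A, 43.2 in C and 11.4 in D, against 35.1 in B, from 133 reads in all. Library D was the low one, with 8 reads and a 95% Poisson interval of 4.92 to 22.5 on its normalized count of 11.4, and library B lay inside the range of the other 3. The mean of A, C and D was 28.8 ± 16.1 (SD, n = 3). By edgeR, the authors' deposited table lists a log2 fold change of -0.26 at an unadjusted p-value of 0.727. Without library D, the log2 ratio of A and C over B was 0.09, against -0.29 with all 3, so that 1 library set its sign. The other pasha transcripts had few reads. NM_001276221 had 3, 5 and 1 reads in A, C and D, against 2 in B, and NM_001276220 had 0, 1 and 1, against 3 in B.

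The cytoplasmic step of the microRNA branch is carried by Dcr-1 and loqs. Transcript NM_079729 of Dcr-1, the dicer that cuts microRNA precursors, had a log2 fold change of -0.28 by edgeR in the authors' deposited table, with an unadjusted p-value of 0.474. By DESeq2 the authors' deposited table gave -0.24 with a standard error of 0.422 and a 95% interval of -1.07 to 0.58. Over the 1655 transcripts with a base mean from 1000 to 5000, the median size of the log2 fold change was 0.18 by edgeR in the authors' deposited table, with a lower quartile of -0.177 and an upper one of 0.18. Dcr-1 lay below that lower quartile and drosha, at -0.179, just below it. The base mean of Dcr-1 per kilobase was 351.3, above 45.8% of the single-transcript genes.

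Loqs encodes double-stranded RNA-binding partners of both dicers, by isoform. NM_001201867 had normalized read counts of 10.8 in A, 6.65 in C and 14.3 in D, against 9.01 in B. Library B lay inside the range of A, C and D, and the log2 fold change by edgeR in the authors' deposited table was 0.20. Its log2 ratio of the sides was 0.23, and without library D it was -0.05. NM_001038814 had 6.75 in A, 5.54 in C and 12.8 in D, against 4.50 in B. Here B was the lowest library, and its counting interval of 1.46 to 10.5 contains the values of A and C, and the edgeR value in the authors' deposited table was 0.82 with an unadjusted p-value of 0.447. Over both transcripts loqs had 71 reads, with sums of 17.6 in A, 12.2 in C and 27.1 in D, against 13.5 in B. The lowest and highest of these sums are both on the side of A, C and D.

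**Figure D2:**
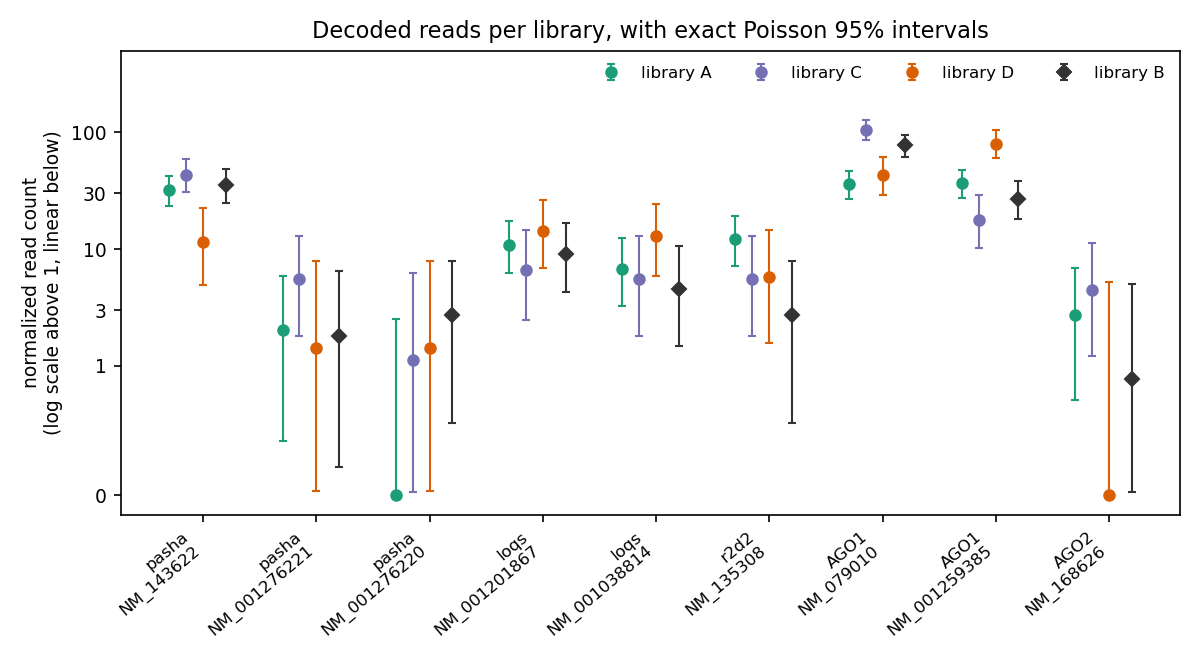
Normalized read counts of the 9 member transcripts that could be written as whole reads (y axis, log scale above 1 and linear below) in libraries A, C and D (circles) and B (diamonds), with exact Poisson 95% intervals that cover counting error only. Library B lies inside the range of the other 3 for 6 of the 9 transcripts.

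Of the RNA interference branch, r2d2 had the largest positive edgeR value among the 11 transcripts with reads. R2D2 is the partner of Dicer-2 that senses which strand to load. Its transcript NM_135308 had normalized read counts of 12.2 in A, 5.54 in C and 5.70 in D, against 2.70 in B. Library A was high, with 18 of the 30 reads, and C, D and B held 5, 4 and 3 reads. B was the lowest of the 4, and its interval of 0.557 to 7.90 contains the values of C and D. The log2 fold change was 1.54 by edgeR in the authors' deposited table, at an unadjusted p-value of 0.191 (false discovery rate 1). By DESeq2 the authors' deposited table gave 0.54 ± 0.644 (standard error), at an adjusted p-value of 0.9999. Without library A the log2 ratio of the sides was 1.06, against 1.53 with it.

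AGO1 encodes the Argonaute protein that carries microRNAs, and its 2 measured transcripts had opposite signs. NM_079010 had normalized read counts of 35.8 in A, 105.3 in C and 42.8 in D, against 77.5 in B. Library C was the high one and A the low one, with B between them. NM_001259385 had 36.5 in A, 17.7 in C and 79.8 in D, against 27.0 in B. For this transcript D was high and C low, again with B between them. The log2 fold changes by edgeR in the authors' deposited table were -0.33 and 0.68, with unadjusted p-values of 0.626 and 0.381. Among A, C and D the highest value was 2.94 times the lowest for NM_079010 and 4.50 times for NM_001259385, which is wider than the difference between the sides.

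Summed over both transcripts, AGO1 was more even. The summed normalized read counts were 72.3 in A, 123 in C and 122.6 in D, against 104.5 in B. The share of the reads of both transcripts that fell to NM_079010 was 49.5% in A (exact 95% interval 39.7 to 59.4), 85.6% in C (77.7 to 91.5) and 34.9% in D (24.9 to 45.9), against 74.1% in B (65.2 to 81.8). The intervals of A and D overlap, as do those of C and B, while neither of A and D overlaps either of C and B. B lay inside the range of A, C and D. These intervals cover read sampling only, and the reads fall to transcripts that the sources do not pair with isoforms, so a change of isoform mix is not shown. The mean of the AGO1 fold changes weighted by base mean was 0.05, against -0.33 for the transcript with the higher base mean.

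**Figure D3:**
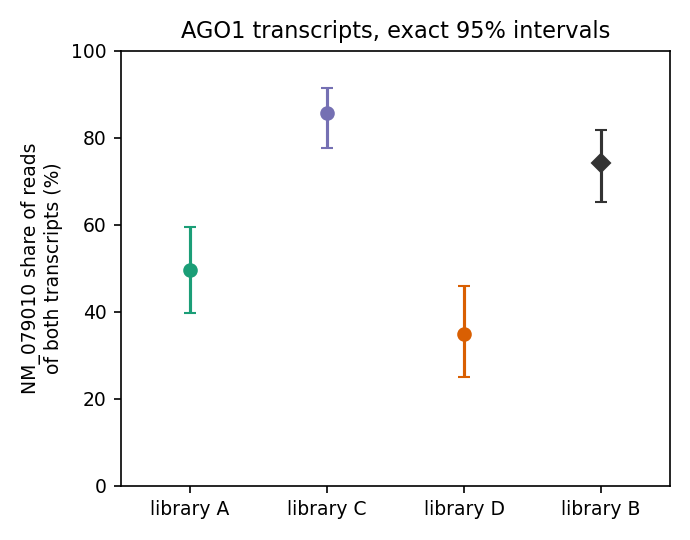
Share of the reads of AGO1 transcripts NM_079010 and NM_001259385 that fell to NM_079010 in libraries A, C and D (circles) and B (diamond), in percent, with exact binomial 95% intervals. C and B lie at 85.6% and 74.1%, and A and D at 49.5% and 34.9%.

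AGO2, the slicer of the RNA interference branch, was represented by 9 reads. NM_168626 had 4 reads in A, 4 in C and 0 in D, against 1 in B, or normalized read counts of 2.70, 4.43 and 0 against 0.901. The count of 0 in D has an upper 95% Poisson limit of 5.26, above the values of the other 3 libraries. The log2 fold change of 1.38 by edgeR in the authors' deposited table had an unadjusted p-value of 0.432. The same reads gave 0.20 with a standard error of 0.495 by DESeq2 in the authors' deposited table. Both DESeq2 numbers are affected by the shrinkage toward 0 at low counts. The other 2 AGO2 transcripts were listed at 0.

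Across the 9 member transcripts with reads per library, B lay inside the range of A, C and D for 6, below it for 2 (NM_001038814 of loqs and NM_135308 of r2d2) and above it for 1 (NM_001276220 of pasha). Among all 4837 transcripts with a base mean up to 30 and at least 9 reads, B lay outside the range for 51.3%. Of the 9 member transcripts, 5 meet those limits, and B lay outside the range for 2 of the 5.

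**Figure D4:**
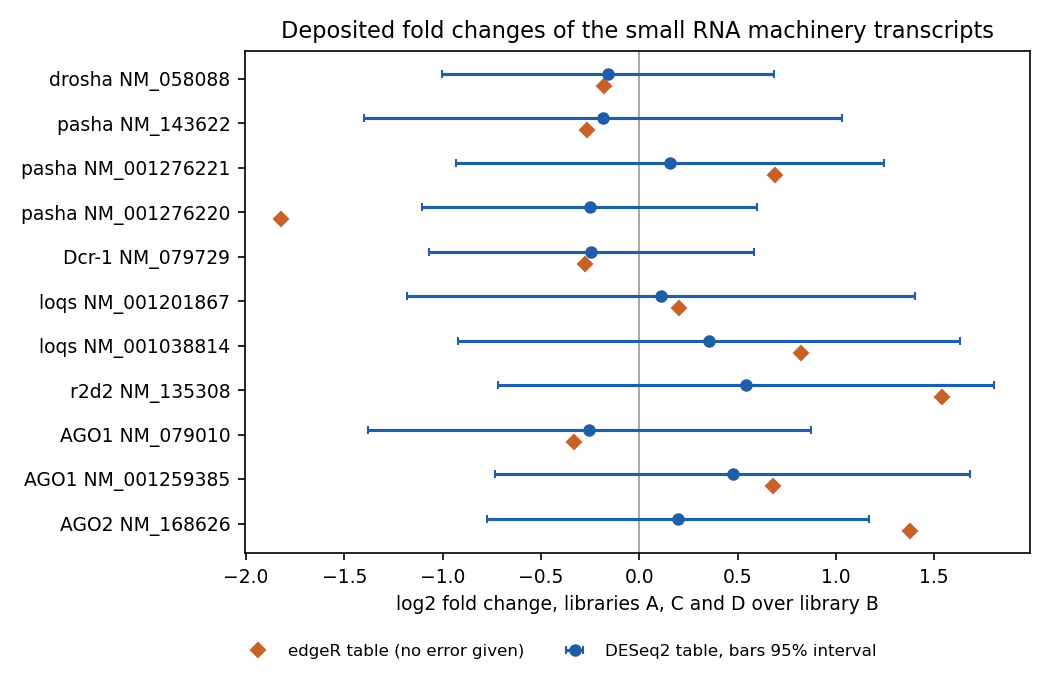
Log2 fold change of libraries A, C and D over library B for the 11 member transcripts with reads, from the authors' deposited DESeq2 table (circles, bars the 95% interval from its standard error) and edgeR table (diamonds, no error given). All DESeq2 bars cross 0, and the edgeR values lie farther from 0, most of all for transcripts with few reads. The DESeq2 values are shrunken toward 0, at low counts but not only there, and bars of transcripts with few reads do not show their precision.

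With 1 transcript per gene, the median log2 fold change of the 7 genes with reads was -0.18 by edgeR in the authors' deposited table. For the 5 genes of base mean 10 or more it was -0.26, with 4 genes negative, and over all 6596 such genes it was 0.01. The middle of that distribution, from the lower to the upper quartile, ran from -0.28 to 0.39, and of the 5 genes only AGO1 lay outside it. Over the 11 transcripts with reads the median was 0.20, so the sign of the members' median changed with the way transcripts were chosen.

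Other genes of the small RNA pathways were described from a list of 38, of which 37 matched a gene and 33 had reads. None of the 33 passed the threshold in either of the authors' deposited tables, and none had an unadjusted edgeR p-value under 0.05. Among all 6596 genes of base mean 10 or more, edgeR called 26 positive and 211 negative ones, and DESeq2 called 194. At an unadjusted edgeR p-value under 0.05 there were 196 positive and 409 negative ones. The 21 genes of base mean 10 or more split into 12 positive and 9 negative, with a median of 0.10. The highest was Ge-1, a scaffold of the decapping complex, with a log2 fold change of 1.03 and an unadjusted p-value of 0.163 by edgeR in the authors' deposited table. The lowest was zuc, the endonuclease of piRNA production, at -0.43 with an unadjusted p-value of 0.480 in the same deposited table of the authors.

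By role, 6 of the 7 deadenylation and decapping genes of base mean 10 or more were positive, with a median of 0.42, and none passed the threshold. These genes act downstream of Argonaute 1 in silencing messenger RNAs. The 7 partners and effectors of the silencing complex split into 3 positive and 4 negative, with a median of -0.11. The 3 chaperones of Argonaute loading had a median of 0.34, and the 2 genes of microRNA export and capping one of 0.06. Both piRNA genes of base mean 10 or more were negative, and 3 of the 8, named after their values were seen, were listed at 0: piwi, armi and vas. All 3 have 2 or more transcripts in the tables.

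**Figure D5:**
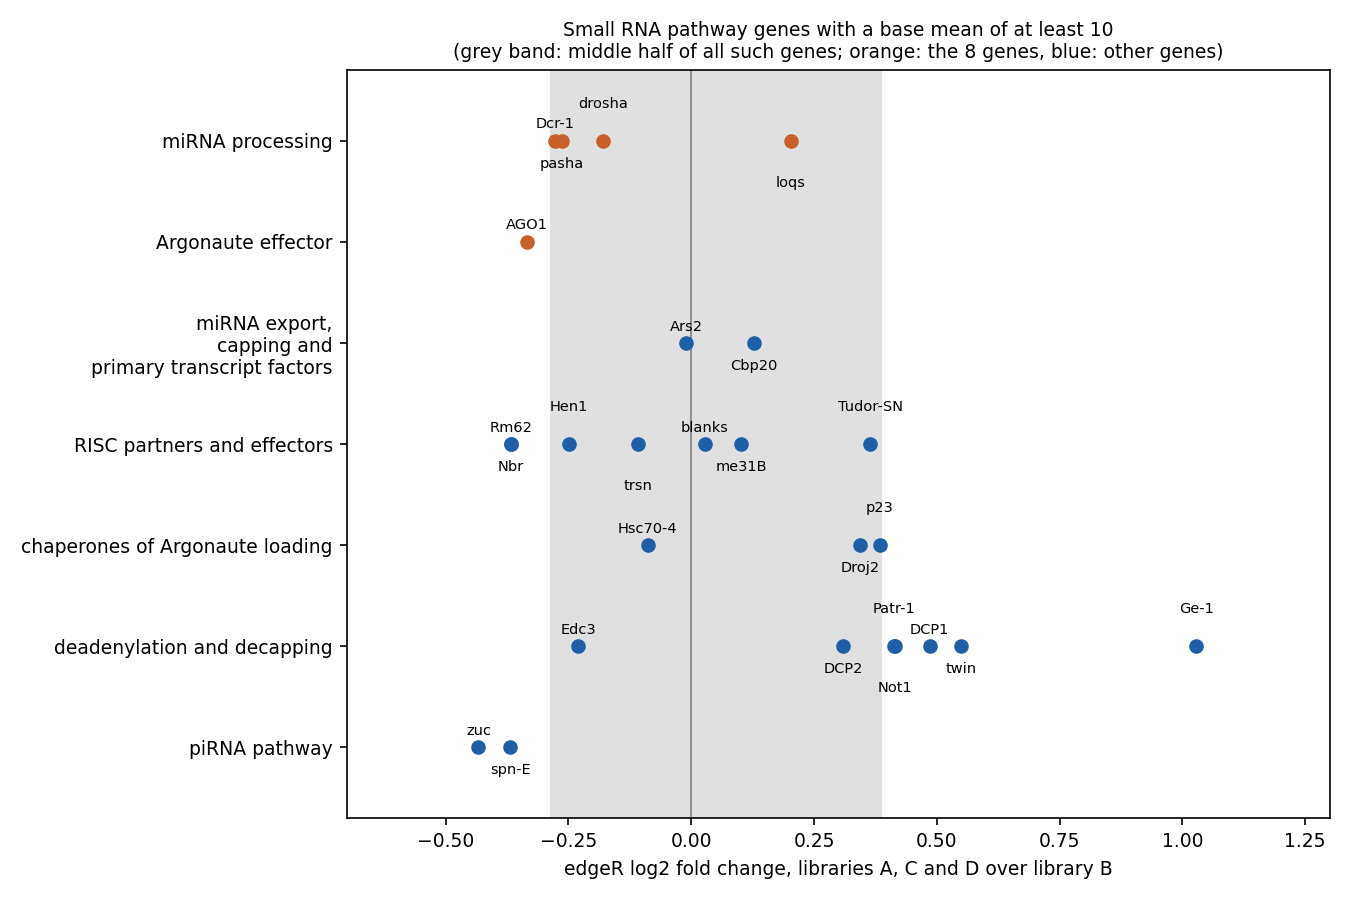
Log2 fold change of libraries A, C and D over library B in the authors' edgeR table (x axis) for small RNA pathway genes of base mean 10 or more, by role (rows). Orange points are genes of the core machinery, blue points the other genes, and the grey band runs from the lower to the upper quartile of all genes, -0.28 to 0.39. Ge-1 lies farthest right at 1.03 and zuc farthest left at -0.43.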

How the data were processed

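Per the submitters' processing notes, the tools named are HISAT2, featureCounts, DESeq2 and edgeR and the build is dm3. Versions, the treatment of shared reads, the strand setting and the group in the numerator are not given in the sources used here. The authors deposited 2 tables of their own comparison, with no values per sample (0 such columns left out). The DESeq2 table has, per the file headers, a base mean (a signal: counts divided by size factors, averaged over libraries), and both tables give log2 fold changes, p-values and a test score (Wald or F statistic). The depth per labelled sample is unknown. The base means sum to 9624228.

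The planned edgeR test on counts could not be run without values per sample, so the authors' deposited edgeR values are the main result and their DESeq2 values an alternative. Calls use an adjusted p-value under 0.05. Intervals on DESeq2 values are the authors' value and its standard error under a normal distribution. These values are shrunken toward 0 at low counts, and for some transcripts with many reads too, as the values show. The width of an interval therefore does not measure precision where reads are few. The standard error was 0.435 for pasha NM_001276220, with 5 reads, and 0.658 for loqs NM_001201867, with 42 reads.

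Steps were searched in base means up to 0.5 and refined up to 10. Member base means up to 66 were written as whole reads with a tolerance of 6.000e-09. Exactly 1 set was found for 100% of 9921 transcripts up to 30 (tolerance 2.000e-08 for those up to base mean 5) and of 200 sampled from 30 to 66, and 5% of those 200, shifted at random, had any set. The log2 ratio of decoded sides minus the authors' edgeR value, with its sign, had a median of 0.01 over 199 of these sampled transcripts. It ran from -0.21 to 0.08. In simulated data the search found 4 steps for 4 libraries and 6 for 6. Poisson intervals (95%) and floors (3 reads) cover counting error only. Base counts used Python 3.11.15 and Ensembl's annotation.

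RefSeq accessions matched 33992 of 34115 transcripts to a gene in a table of Release 6 plus ISO1 MT. Where 1 value per gene is given, it is that of the transcript with the highest base mean. Named are the 8 genes, any other pathway gene past the threshold or with an unadjusted p-value under 0.05 in the authors' edgeR table, and otherwise the highest and lowest fold change. Likeness of pattern between genes was planned only for values per sample, which are lacking, and was not computed. The decoded libraries were not used for it. The members and gene lists were chosen with earlier results of these data known. Sequences are not shown here.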

Additional observations from a re-analysis of the deposited data

How the results depend on the processing

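The count of calls, for the members and for the other small RNA pathway genes, was 0 under all 6 alternatives. These were the DESeq2 table, a false discovery rate under 0.01 or 0.1, and an unadjusted p-value under 0.05. The others were adjustment limited to base means of 10 or more, and a call in both tables. The rate under 0.01 and the call in both tables could not add calls to 0. With smallest unadjusted p-values of 0.191 by edgeR and 0.400 by DESeq2, no member could be called under any alternative. Of 25 alternatives that kept all libraries, 2 changed a sign. The AGO1 fold change was 0.053 as a mean over its transcripts weighted by base mean, against -0.33. The median of the members was 0.20 over all transcripts with reads, against -0.18 with 1 per gene. The median DESeq2 standard error of single members was 0.575, which does not measure the spread of such a median. Leaving out A, C or D in turn reversed the sign of 3 of the 9 decoded transcripts. The log2 ratio of the sides ran from -0.70 to 0.0935 for pasha NM_143622 (reversed without D), from -0.0621 to 1.07 for NM_001276221 (reversed without C) and from -0.0456 to 0.48 for loqs NM_001201867 (reversed without D). It ran from -0.98 to -0.0654 for AGO1 NM_079010 and from 0.00409 to 1.11 for AGO1 NM_001259385. The ranges were 0.45 to 1.12 for loqs NM_001038814, 1.06 to 1.72 for r2d2, 0.58 to 1.99 for AGO2 and -2.29 to -1.09 for pasha NM_001276220. The cause of these reversals was not tested further. Library B has no second library on its side, so it could not be left out. No paired analysis was possible because neither table gives values for single samples. Fits without a sample and the other normalization were not run for that reason.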

Other observations

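Dcr-2 is one of 963 genes with 2 or more transcripts, under 10 own bases and every transcript at 0.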
